A study of Mus musculus with 18 samples.

Results

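Bone morphogenetic protein (BMP) signalling was described in a mouse pre-osteoblast line through 10 genes chosen by name: the ligands Bmp2 and Bmp4, the receptors Bmpr1a and Bmpr2, the extracellular inhibitors Nog and Grem1, the inhibitory Smad gene Smad6, and the target genes Id1, Id2 and Id3. The deposited table of 30452 genes held 9 of them. Bmp2 was not analysed here. A filter that kept genes with at least 1 FPKM (fragments per length of transcript, scaled by the depth of the library) in at least 3 libraries left 11936 genes for testing. Of the members, 8 passed it, and Nog did not.

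BMP ligands are secreted dimers that bring type I and type II serine/threonine kinase receptors together. The type I receptor then phosphorylates the receptor-regulated Smads 1, 5 and 9, which enter the nucleus with Smad4. Id genes and Smad6 are among the direct targets: Id proteins hold back basic helix-loop-helix transcription factors, and Smad6 feeds back on the receptors. Noggin and gremlin bind the ligands outside the cell. In bone, the pathway is known for driving mesenchymal cells towards osteoblasts.

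The cells were MC3T3-E1, an established mouse pre-osteoblast line, seeded at 20000 cells per well on 15 mm discs of fibre membrane and grown for 5 days. PLLA, a polyester that degrades in the body, was used alone. In PLLA/ZnO it carried zinc oxide, and PLLA/ZnO@Col held collagen as well. All discs were irradiated for sterility. Each membrane was kept without ultrasound (-US) or given ultrasound for 10 min every day (+US), with 3 libraries of polyadenylated RNA in each of 6 groups. There was no group off membrane, so every comparison is between cells on fibres. The series asks whether these piezoelectric membranes, which turn mechanical force into charge, promote bone repair. The labels do not say that replicates were separate cultures, so p-values measure the spread between these libraries, which may be technical. In bulk RNA, fewer cells of a type and less RNA per cell cannot be told apart.

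Library totals lay between 48307580 and 78039543 counts. All 6 pre-osteoblast markers examined reached 1 FPKM, but none of 4 later osteoblast markers did, with Alpl at no more than 0.178 FPKM. Counts of 4 Y-linked genes, set against the median library, separated the libraries into sets. In 3 libraries they were under 5% of the median (on PLLA/ZnO@Col, replicates 1 and 3 without and replicate 1 with ultrasound). In 4 they lay between 18.7% and 45.9% (replicate 3 of PLLA +US and of PLLA/ZnO +US, and the other two of PLLA/ZnO@Col +US), and in the other 11 at or above 79.8%. Marker sums also differed between these sets. The 6 pre-osteoblast markers summed to 3610 to 4763 FPKM in the 11 libraries, 2863 to 3314 in the 4 and 2843 to 3172 in the 3. The sum of 5 macrophage markers was 30.8 to 34.5 FPKM in the 3 libraries, 6.51 to 8.98 in the 4 and 6.499 to 28.3 in the 11. Of these 5, Lyz2 reached 26.8, Cd68 5.97 and Csf1r 1.68 FPKM, while the leukocyte gene Ptprc and the macrophage gene Adgre1 peaked at 0.0935 and 0.0813 FPKM. The mitochondrial share was 1.83% to 2.27% in the 3, 1.57% to 1.87% in the 4 and 2.31% to 4.54% in the 11. The kidney gene Kap was at 62.4 FPKM in PLLA +US replicate 3 and at 0 in the rest. These sets fall mostly on the collagen membrane, so results there are given with all libraries and without the 3 or the 4, and the part of the sets was not tested beyond those values. Leaving out the 3 keeps PLLA/ZnO@Col -US replicate 2 as the only unstimulated collagen library, with all 4 intermediate libraries among those given ultrasound. Leaving out the 4 keeps PLLA/ZnO@Col +US replicate 1 as the only stimulated one. Each such fit assumes that the lone library varies like the other groups. The 4 all had ultrasound, so leaving them out takes no library from comparisons without ultrasound. Leaving out PLLA/ZnO@Col +US replicate 1 keeps only intermediate libraries in its group. Leaving out PLLA/ZnO@Col -US replicate 2 keeps only libraries under 5% in its group. Group and library set cannot be told apart in such a fit.

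The promoters of Smad6, Id3, Id2 and Bmp4 are shown because these are the targets and the ligand for which a window was matched. RefSeq windows (GRCm38.p6) were matched for 7 of the 10 members, not including Id1. Each window ran from 250 bases before to 50 after the start site, and the first 270 bases are printed 5′ to 3′ on the gene's strand. Capitals mark 3 motifs known to bind Smad proteins, searched on both strands: GTCTAGAC, its own reverse complement; GGCGCC, likewise; and GGAGCC, whose reverse complement is GGCTCC. None of the marked matches overlapped another.
Smad6, chr9:64022040-64022309, minus strand: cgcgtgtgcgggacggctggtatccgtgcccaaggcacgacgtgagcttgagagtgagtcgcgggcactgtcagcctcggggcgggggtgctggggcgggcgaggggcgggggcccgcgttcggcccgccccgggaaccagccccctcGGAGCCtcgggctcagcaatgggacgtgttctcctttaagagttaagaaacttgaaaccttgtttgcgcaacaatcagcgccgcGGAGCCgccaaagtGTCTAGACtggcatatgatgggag
Id3, chr4:136143572-136143841, plus strand: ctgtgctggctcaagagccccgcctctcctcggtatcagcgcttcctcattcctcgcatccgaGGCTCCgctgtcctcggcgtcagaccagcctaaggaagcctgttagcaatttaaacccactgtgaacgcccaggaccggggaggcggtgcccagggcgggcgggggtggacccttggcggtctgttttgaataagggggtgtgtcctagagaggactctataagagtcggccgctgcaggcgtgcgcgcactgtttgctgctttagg
Id2, chr12:25096073-25096342, minus strand: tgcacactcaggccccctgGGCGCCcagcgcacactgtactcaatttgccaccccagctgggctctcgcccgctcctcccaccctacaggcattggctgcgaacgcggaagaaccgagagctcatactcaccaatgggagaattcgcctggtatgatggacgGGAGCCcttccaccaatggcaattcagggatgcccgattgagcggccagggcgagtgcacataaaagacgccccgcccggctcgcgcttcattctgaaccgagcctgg
Bmp4, chr14:46390650-46390919, minus strand: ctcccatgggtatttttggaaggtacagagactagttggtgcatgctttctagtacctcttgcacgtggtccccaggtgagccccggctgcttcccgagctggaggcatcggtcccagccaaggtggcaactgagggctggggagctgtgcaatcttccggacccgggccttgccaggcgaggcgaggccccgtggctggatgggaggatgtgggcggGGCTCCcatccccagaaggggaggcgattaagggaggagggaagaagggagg

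GTCTAGAC, the palindromic Smad element, stood in 0.213% of all 32851 windows and in 1 of the 7 member windows, that of Smad6, where it began 4 bases before the start site. GGCGCC stood in 11.9% of all windows and in those of Bmpr1a, Bmpr2, Grem1 and Id2. GGAGCC or its reverse complement stood in 30.8% of all windows and in those of Bmp4, Id2, Id3 and Smad6, with 2 copies in Smad6. A match describes the letters only.

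On the collagen membrane without ultrasound, Bmp4, Id1, Id3 and Smad6 had their lowest group means, and with ultrasound Id1, Id3 and Smad6 had their highest. By edgeR none of the comparisons between these groups passed the adjusted threshold, and by DESeq2 Bmp4 did for collagen without ultrasound. Each change is a log2 fold change with its standard error (SE) from edgeR's quasi-likelihood test on counts. A gene was called where its p, adjusted over all 11936 genes by Benjamini-Hochberg, was under 0.05. The test called 0% of all genes, and 0 of 8 members, in each of the 7 comparisons between groups, in the ultrasound average over the 3 membranes, in the test of any difference among the 6 groups and in the test of an ultrasound response that differs between membranes. DESeq2 called 1 member, Bmp4, for collagen without ultrasound (3.41% of all genes called) and for any difference (4.24%), and limma on log2(FPKM + 1) or log2(FPKM + 0.1) called none.

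At an unadjusted p under 0.05, 4 of 8 members were higher with ultrasound on PLLA/ZnO@Col: Bmp4, Id1, Id3 and Smad6. The same bar was passed upwards by 5.15% of all genes. No member passed it for ultrasound on PLLA (0.436% of all genes) or on PLLA/ZnO (3.24%), nor for zinc oxide, PLLA/ZnO against PLLA, without (1.19%) or with ultrasound (1.27%). For collagen, PLLA/ZnO@Col against PLLA/ZnO, 2 members were lower without ultrasound (Bmp4 and Id1; 5.17% of all genes) and 1 was higher with it (Smad6; 6.92%). Over the 3 membranes together, Id1 and Smad6 were higher with ultrasound (6.33% of all genes). Bmp4 and Smad6 passed for any difference (10.8%) and for a response that differs between membranes (1.03%). The members' median log2 fold change was 0.19 for ultrasound on PLLA/ZnO@Col (4 higher, 4 lower), against -0.03 over all tested genes. It was -0.21 against 0.04 for collagen without ultrasound (3 higher, 5 lower). For collagen with ultrasound it was -0.28 against 0.00 (3 higher, 5 lower). In the comparisons without collagen it lay between -0.11 and 0.14. The ultrasound and collagen comparisons on PLLA/ZnO@Col share the same libraries, so they are not separate evidence.

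**Figure D1:**
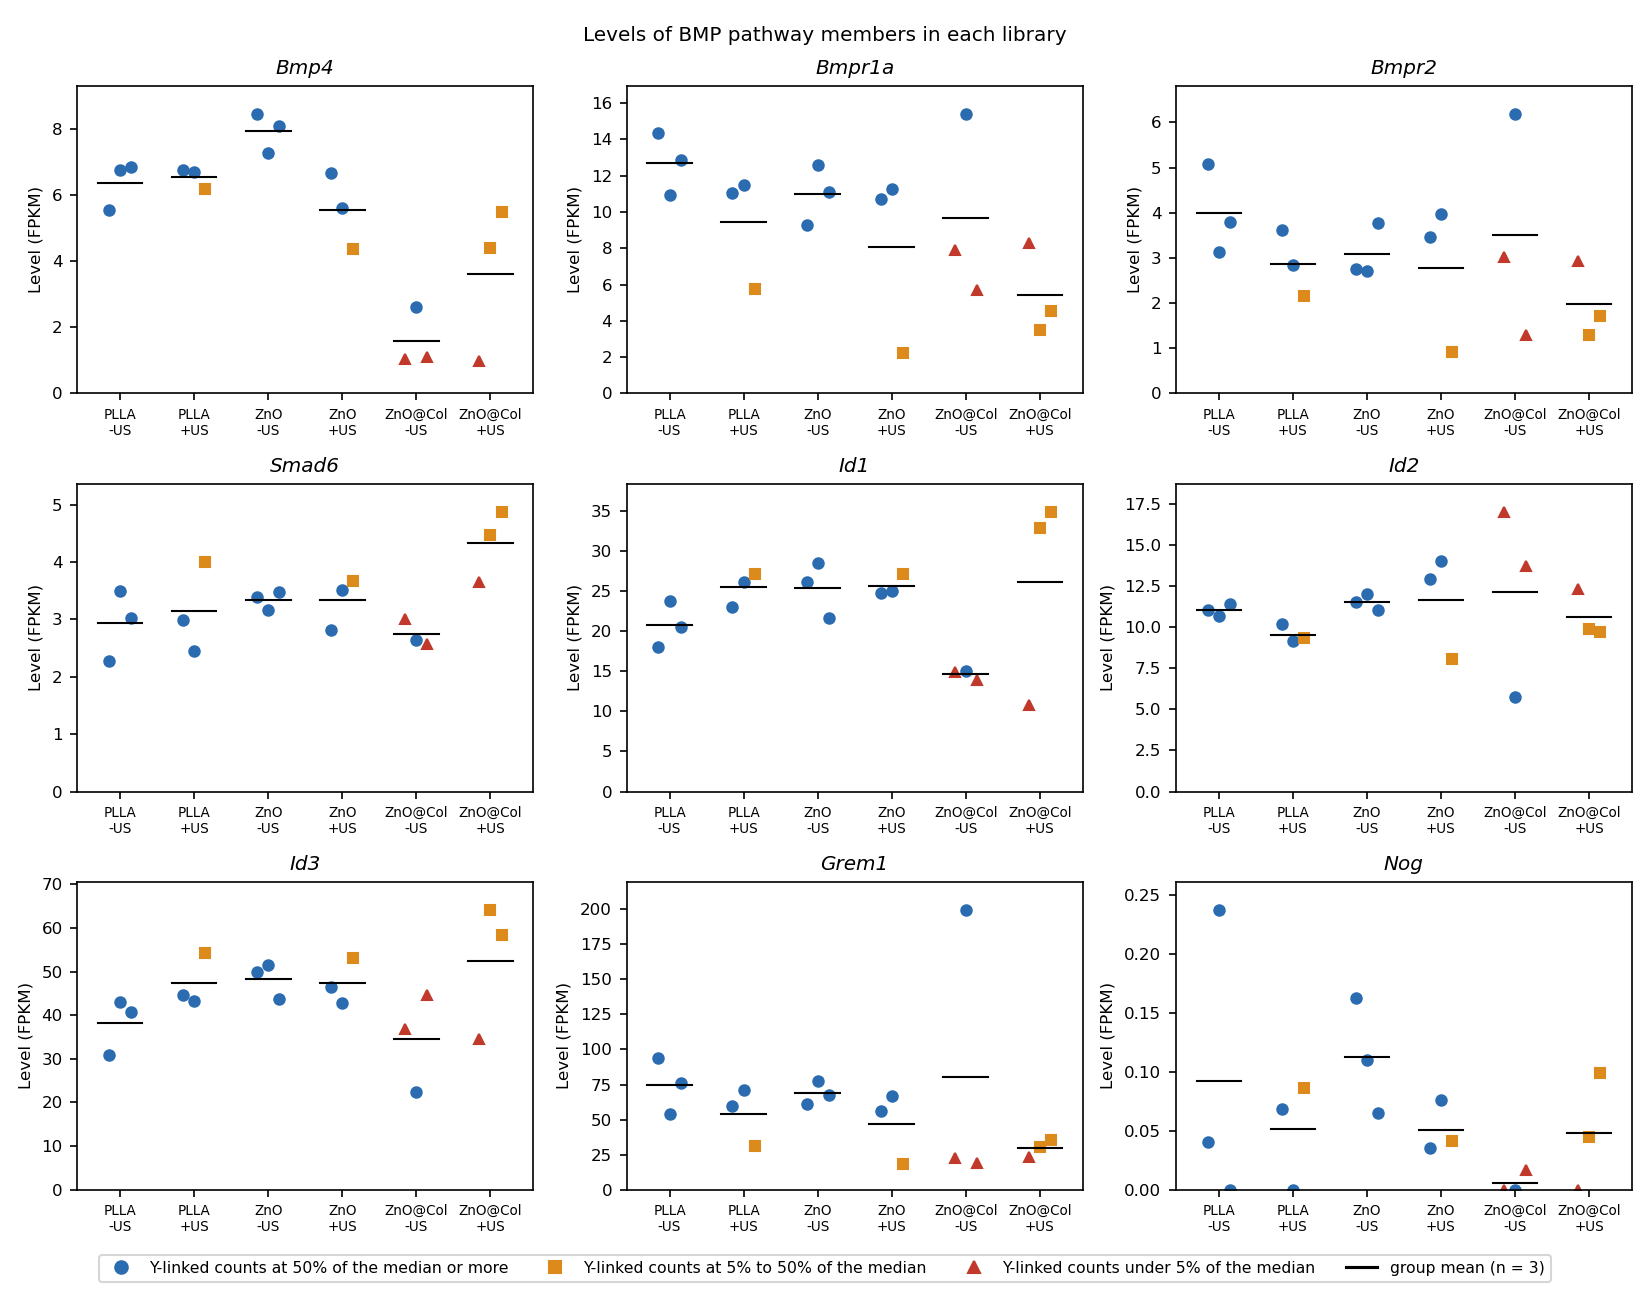
Level of each of the 9 members in the table (FPKM, y axis from 0) in every library, by group (x axis); black lines are group means of 3 libraries, and colour and shape give the library's Y-linked counts against the median. Bmp4 lies between 0.970 and 2.63 FPKM in the 3 PLLA/ZnO@Col -US libraries and in PLLA/ZnO@Col +US replicate 1, below all other libraries.

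Bmp4, the ligand of this set that could be measured, had group means from 1.59 to 7.94 FPKM. The gene (ENSMUSG00000021835) lies on chromosome 14 from 46383520 to 46390669, minus strand, and is protein-coding. Its level was 5.55, 6.75 and 6.84 FPKM on PLLA without ultrasound and 6.76, 6.71 and 6.21 with it. On PLLA/ZnO it was 8.46, 7.27 and 8.08 without and 6.68, 5.60 and 4.39 with ultrasound. All 3 libraries without ultrasound lay above all 3 with it there, at a log2 fold change of -0.51 (SE 0.44, adjusted p = 0.937 by edgeR). With collagen it was 1.04, 2.63 and 1.1002 without and 0.970, 4.40 and 5.48 with ultrasound. The unstimulated collagen libraries lay below every library of the other membranes, and the stimulated ones split into 1 low and 2 near the other membranes.

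In order of group mean, Bmp4 stood at 7.94 ± 0.607 FPKM (SD, n = 3) on PLLA/ZnO -US, 6.56 ± 0.307 on PLLA +US, 6.38 ± 0.722 on PLLA -US, 5.56 ± 1.15 on PLLA/ZnO +US, 3.62 ± 2.36 on PLLA/ZnO@Col +US and 1.59 ± 0.901 on PLLA/ZnO@Col -US. Among neighbours in that order, only the highest and the next had ranges that did not overlap. For collagen without ultrasound the log2 fold change was -2.30 (SE 0.46), 4.93-fold lower, with an unadjusted p of 0.000157 and an adjusted p of 0.0703 by edgeR. DESeq2 gave an adjusted p of 0.000222. Without PLLA/ZnO@Col -US replicate 2, the highest of its group, the log2 fold change was -2.82 with an adjusted p of 0.0107 by edgeR (8.7% of all genes called).

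On PLLA/ZnO@Col -US, Bmp4 was at 1.04 and 1.1002 FPKM in replicates 1 and 3 and at 2.63 in replicate 2. Replicate 2 is the only library of that group outside the 3 of lowest Y-linked counts. Without those 3, the log2 fold change for collagen without ultrasound was -1.62, a value that rests on replicate 2 alone. Collagen and library cannot be told apart there. The 4 libraries of intermediate Y-linked counts all had ultrasound and are not in this comparison. The fit without them gave -2.30, which is no check of the value. In that fit the adjusted p for any difference among the groups was 0.0471 for Bmp4 (0.0503% of all genes called), against 0.228 with all libraries.

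With ultrasound on PLLA/ZnO@Col, Bmp4 had a log2 fold change of 1.20 (SE 0.45, adjusted p = 0.525 by edgeR), higher in 2 of 3 libraries. Without PLLA/ZnO@Col +US replicate 1, the lowest of its group, it was 1.67 with an adjusted p of 0.0394 by edgeR (0.318% of all genes called). In that fit, too, group and library set cannot be told apart. Leaving out the 3 libraries gave 0.95 (adjusted p = 0.0601 by edgeR). Without the 4, where replicate 1 is the only one left with ultrasound on collagen, the direction turned, to -0.67. Among the 3 libraries of lowest Y-linked counts, which hold both collagen groups, Bmp4 was 1.04 and 1.1002 FPKM without ultrasound and 0.970 with it. The test of a response that differs between membranes had an unadjusted p of 0.0432 and an adjusted p of 0.99997 by edgeR.

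Strand could matter for Bmp4, since the counting of strand is not given in the sources used here. In the table, the antisense gene Gm15222 lies within Bmp4 and Gm15217 overlaps its end by 89 bases. Gm15222 reached 0.187 FPKM at most and Gm15217 0.0333. For the type I receptor Bmpr1a, the antisense gene Gm17110 reached 0.380 FPKM.

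**Figure D2:**
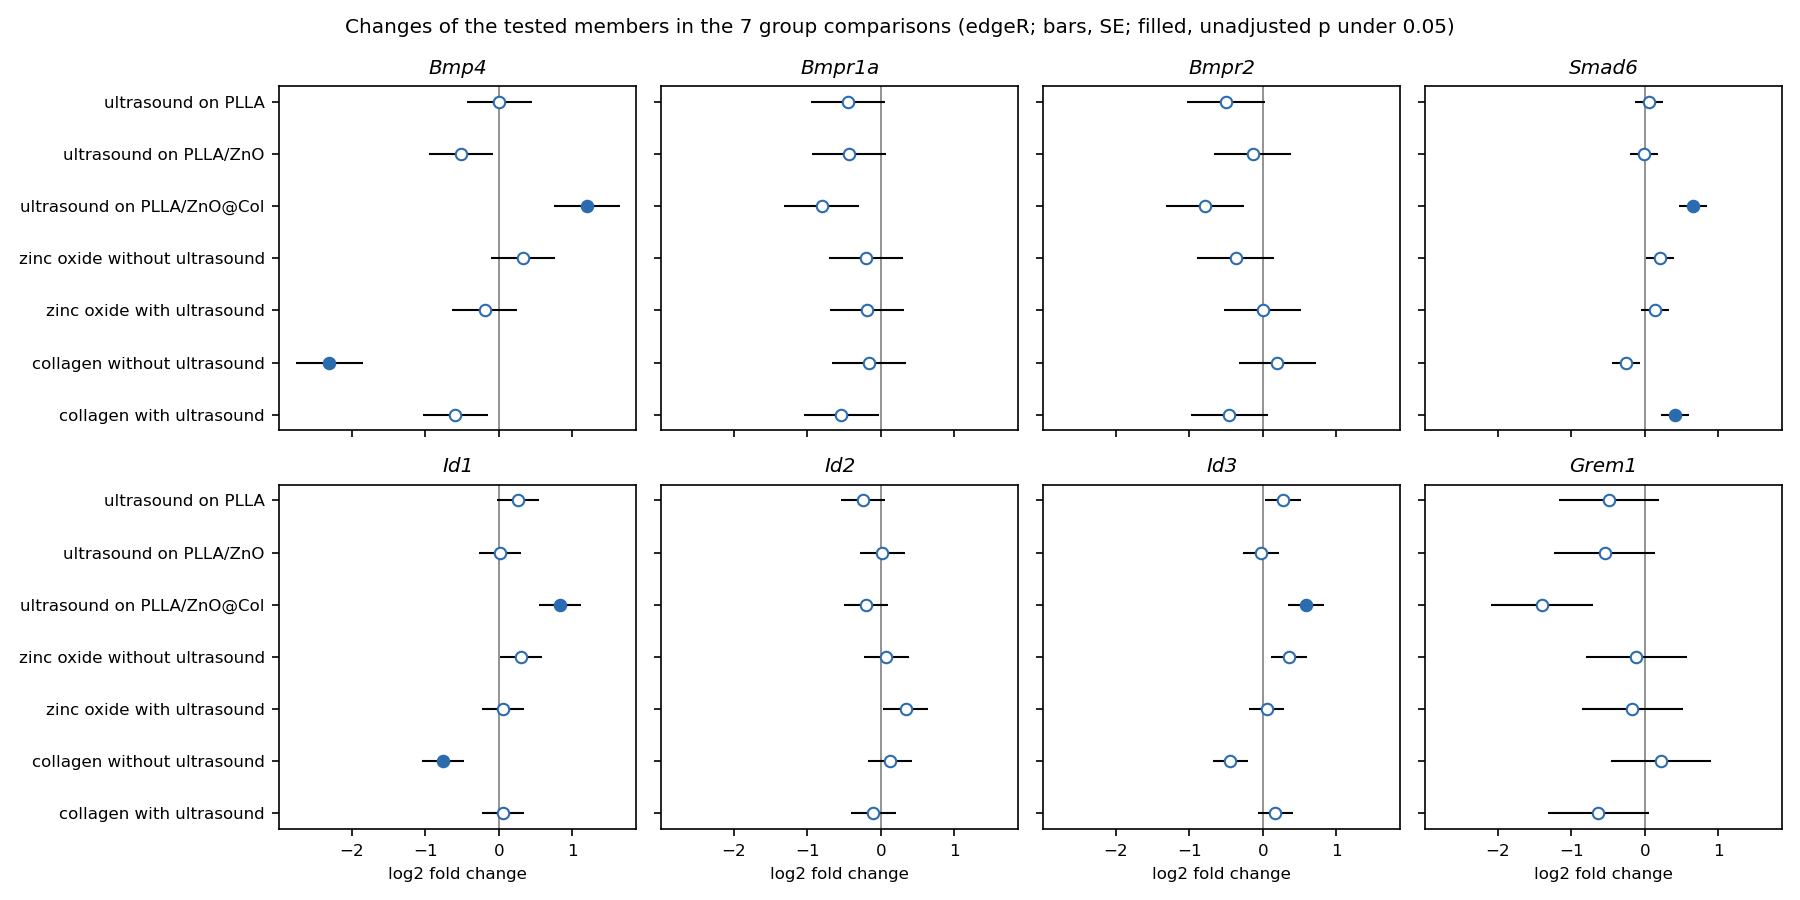
log2 fold change (x axis) of the 8 tested members in the 7 group comparisons (rows), with SE bars from edgeR; filled points have an unadjusted p under 0.05. Filled points fall only in comparisons that involve PLLA/ZnO@Col, and the largest is Bmp4 for collagen without ultrasound, at -2.30.

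Neither receptor separated the groups. Bmpr1a (ENSMUSG00000021796; chromosome 14, 34410734 to 34502687, minus strand), a type I receptor, had a median of 10.8 FPKM. Its values were 14.3, 10.9 and 12.9 FPKM on PLLA -US and 11.1, 11.49 and 5.74 on PLLA +US. They were 9.29, 12.6 and 11.1 on PLLA/ZnO -US and 10.7, 11.2 and 2.23 on PLLA/ZnO +US. With collagen they were 7.88, 15.4 and 5.72 without and 8.30, 3.48 and 4.55 with ultrasound. All 7 comparisons had negative log2 fold changes, from -0.81 to -0.16, and every pair of groups compared overlapped. The smallest p was for ultrasound on PLLA/ZnO@Col, at -0.81 (SE 0.51, adjusted p = 0.527 by edgeR). It was -1.89 (adjusted p = 0.0793) without the 3 libraries and -0.19 without the 4. Leaving out PLLA/ZnO@Col -US replicate 2 alone gave -0.36, and leaving out PLLA/ZnO@Col +US replicate 1 gave -1.23.

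Bmpr2 (ENSMUSG00000067336; chromosome 1, 59763400 to 59879014, plus strand), the type II receptor that phosphorylates type I receptors, had a median of 2.98 FPKM. It was at 5.07, 3.14 and 3.80 FPKM on PLLA -US, 3.62, 2.84 and 2.16 on PLLA +US, 2.75, 2.72 and 3.77 on PLLA/ZnO -US and 3.47, 3.97 and 0.910 on PLLA/ZnO +US. PLLA/ZnO@Col gave 3.01, 6.19 and 1.29 without and 2.94, 1.30 and 1.72 with ultrasound. Both receptors were lowest in PLLA/ZnO +US replicate 3 and highest in PLLA/ZnO@Col -US replicate 2. For Bmpr2 the smallest p was again for ultrasound on PLLA/ZnO@Col, at -0.79 (SE 0.53, adjusted p = 0.530 by edgeR), and its groups overlapped in each comparison. That value was -1.99 (adjusted p = 0.0698 by edgeR) without the 3 libraries and -0.21 without the 4, and -0.16 without PLLA/ZnO@Col -US replicate 2. In the 4 libraries of intermediate Y-linked counts, Bmpr1a lay between 2.23 and 5.74 FPKM and Bmpr2 between 0.910 and 2.16, against 9.29 to 15.4 and 2.72 to 6.19 in the 11. The part of these sets in the receptor values was not tested otherwise.

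Gremlin and noggin, the secreted inhibitors, were at opposite ends of the range. Grem1 (ENSMUSG00000074934; chromosome 2, 113746164 to 113758646, minus strand) was the most abundant member, with a median of 57.8 FPKM. Its levels on PLLA were 93.6, 54.2 and 76.0 FPKM without and 59.9, 70.8 and 31.0 with ultrasound. On PLLA/ZnO they were 60.8, 77.7 and 67.6 without and 55.7, 66.7 and 18.2 with ultrasound. On PLLA/ZnO@Col they were 22.3, 199 and 19.0 without and 23.1, 30.7 and 35.3 with ultrasound. A single library, PLLA/ZnO@Col -US replicate 2, held the highest value, and all 7 libraries with lowered Y-linked counts lay between 18.2 and 35.3, below the 54.2 FPKM or more of the other 11.

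For ultrasound on PLLA/ZnO@Col, Grem1 had a log2 fold change of -1.39 (SE 0.70, adjusted p = 0.525 by edgeR), and without that library the direction turned, to 0.47. It was -2.55 (adjusted p = 0.0512 by edgeR) without the 3 libraries and -1.74 without the 4. For collagen without ultrasound, leaving it out gave -1.67 with an adjusted p of 0.0431 by edgeR, against 0.22 with it. For ultrasound averaged over the membranes, Grem1 was at -0.81 (adjusted p = 0.363 by edgeR) with all libraries and at -1.19 (adjusted p = 0.0394) without the 3, where 8.75% of all genes were called. In that fit the same library, at 199 FPKM, is the whole of the unstimulated collagen group, so the value rests on it.

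Nog (ENSMUSG00000048616; chromosome 11, 89300638 to 89302332, minus strand) had 0 to 24 counts per library and at most 0.237 FPKM. It had 4, 24 and 0 counts on PLLA -US, 8, 0 and 13 on PLLA +US, 17, 11 and 8 on PLLA/ZnO -US and 4, 8 and 4 on PLLA/ZnO +US. With collagen it had 0, 0 and 2 counts without and 0, 6 and 10 with ultrasound. A count of 0 allows up to 3 counts, or 0.0531 to 0.0601 CPM in the 5 libraries where none was found, for counting error only. At this depth Nog was near the limit of detection in all groups, and no fold change was computed.

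By group mean, Smad6 was lowest on collagen without ultrasound and highest on collagen with it. It encodes the inhibitory Smad that competes with receptor-regulated Smads, and lies on chromosome 9 from 63953076 to 64022059, minus strand (ENSMUSG00000036867). Its level was 2.27, 3.50 and 3.03 FPKM on PLLA -US, 2.99, 2.45 and 4.00 on PLLA +US, 3.39, 3.17 and 3.47 on PLLA/ZnO -US and 2.81, 3.51 and 3.67 on PLLA/ZnO +US. PLLA/ZnO@Col gave 3.0, 2.65 and 2.57 without and 3.64, 4.47 and 4.87 with ultrasound. All 3 stimulated libraries lay above all 3 unstimulated ones. That held among the 3 libraries of lowest Y-linked counts (3.0 and 2.57 without against 3.64 with ultrasound). How many of all genes separate in this way was not computed, for this or any other comparison.

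The log2 fold change of Smad6 for ultrasound on PLLA/ZnO@Col was 0.66 (SE 0.19), 1.58-fold higher, with an unadjusted p of 0.00325 and an adjusted p of 0.525 by edgeR. Over the alternative settings it stayed positive, from 0.43 to 0.86, and the adjusted p ran from 0.0781 to 0.999. On PLLA the log2 fold change was 0.06 and on PLLA/ZnO -0.01. The test of a response that differs between membranes had an unadjusted p of 0.0456 and an adjusted p of 0.99997 by edgeR. For collagen with ultrasound Smad6 was at 0.41 (SE 0.19, adjusted p = 0.514 by edgeR), 0.48 without the 3 libraries and 0.26 without the 4. In the 4 libraries of intermediate Y-linked counts it was 3.67 to 4.87 FPKM, against 2.27 to 3.51 in the 11.

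Id1, the most widely used read-out of BMP signalling, was low and even on collagen without ultrasound. The gene (ENSMUSG00000042745) lies on chromosome 2 from 152736251 to 152737410, plus strand. Its level was 18.01, 23.8 and 20.5 FPKM on PLLA -US and 23.1, 26.2 and 27.2 on PLLA +US. On PLLA/ZnO it was 26.2, 28.5 and 21.6 without and 24.8, 24.98 and 27.2 with ultrasound. On PLLA/ZnO@Col it was 14.9, 15.0 and 13.9 without and 10.8, 32.9 and 34.9 with ultrasound. The unstimulated collagen libraries lay below all libraries of the other membranes, and the stimulated ones held both the lowest and the 2 highest values of the series.

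By group mean, Id1 ran from 14.6 ± 0.615 FPKM (SD, n = 3) on PLLA/ZnO@Col -US through 20.8 ± 2.89 on PLLA -US, 25.4 ± 3.53 on PLLA/ZnO -US, 25.5 ± 2.13 on PLLA +US and 25.7 ± 1.33 on PLLA/ZnO +US to 26.2 ± 13.3 on PLLA/ZnO@Col +US. The last 4 differed by less than their SD. For collagen without ultrasound the log2 fold change was -0.76 (SE 0.29, adjusted p = 0.268 by edgeR). It stayed at -0.76 without the 4 libraries, none of which is in this comparison. Leaving out each library in turn gave -0.86 to -0.69, with an adjusted p from 0.165 to 0.616 by edgeR. Of 16 alternative settings, only the fit without the 4 passed the adjusted threshold for Id1. That fit left PLLA/ZnO@Col +US replicate 1 alone in its group. Within the 11 libraries of ordinary Y-linked counts, the single collagen library stood at 15.0 FPKM and those of PLLA/ZnO -US at 21.6 to 28.5.

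With ultrasound on PLLA/ZnO@Col, Id1 had a log2 fold change of 0.84 (SE 0.29, adjusted p = 0.525 by edgeR), higher in 2 of 3 libraries. Without PLLA/ZnO@Col +US replicate 1, the lowest of its group, it was 1.24 with an adjusted p of 0.00417 by edgeR (0.318% of all genes called). The stimulated collagen libraries left all had intermediate Y-linked counts, so ultrasound and library set cannot be told apart there. Leaving out the 3 libraries of lowest Y-linked counts gave 1.22 (adjusted p = 0.0231 by edgeR; 0.93% of all genes called). Without the 4 libraries it turned to -0.42. Averaged over the membranes, the log2 fold change of Id1 was 0.37 (SE 0.16, adjusted p = 0.363 by edgeR). Without the 3 libraries it was 0.51. In that fit PLLA/ZnO@Col -US replicate 2 is the whole of the unstimulated collagen group. The 4 intermediate libraries all had ultrasound, so ultrasound and library set cannot be told apart there either.

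Id3, another inhibitor of helix-loop-helix factors, had a median of 44.1 FPKM, above the 24.3 FPKM of Id1. It lies on chromosome 4 from 136143497 to 136145392, plus strand (ENSMUSG00000007872). Its level was 30.8, 43.0 and 40.7 FPKM on PLLA -US and 44.6, 43.3 and 54.3 on PLLA +US. These groups did not overlap, narrowly, at a log2 fold change of 0.28 (SE 0.24, adjusted p = 0.978 by edgeR). On PLLA/ZnO it was at 49.999, 51.4 and 43.6 without and 46.6, 42.9 and 53.0 with ultrasound. PLLA/ZnO@Col gave 36.9, 22.4 and 44.6 without and 34.6, 64.1 and 58.4 with ultrasound, so that 1 stimulated library fell within the unstimulated range. The log2 fold change there was 0.59 (SE 0.24, adjusted p = 0.525 by edgeR). Without the 3 libraries it was 1.496 (adjusted p = 0.0107), and for collagen without ultrasound -1.14 (adjusted p = 0.0268), both by edgeR and both resting on PLLA/ZnO@Col -US replicate 2 as the only unstimulated collagen library. Leaving out the 4 libraries gave 0.0078 for ultrasound, and leaving out PLLA/ZnO@Col -US replicate 2 gave 0.31.

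Id2, the other Id gene of the set, had no comparison with an unadjusted p under 0.05. It lies on chromosome 12 from 25093799 to 25097140, minus strand (ENSMUSG00000020644), and was at 11.05, 10.7 and 11.4 FPKM on PLLA -US, 10.2, 9.14 and 9.33 on PLLA +US, 11.6, 12.02 and 11.04 on PLLA/ZnO -US and 13.0, 14.0 and 8.07 on PLLA/ZnO +US. On PLLA/ZnO@Col it was at 17.03, 5.73 and 13.7 without and 12.3, 9.92 and 9.70 with ultrasound. Its highest and lowest values both came from unstimulated collagen libraries. Over the 7 comparisons its log2 fold changes lay between -0.24 and 0.34, and the smallest p was for zinc oxide with ultrasound, at 0.34 (SE 0.30, adjusted p = 0.99997 by edgeR). On PLLA the stimulated libraries lay below the unstimulated ones, at -0.24 (adjusted p = 0.978 by edgeR).

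Covariation of the members was examined over 8 pairs within the 11 libraries of ordinary Y-linked counts, because the sets of libraries would otherwise set a pooled value. On log2 CPM (counts scaled by library size), Id1 and Id3 had a Pearson r of 0.94 (permutation p = 9e-05, adjusted over the pairs 0.00072) and a Spearman rho of 0.84 (permutation p = 0.00207, adjusted 0.0166). Leaving out the 2 libraries farthest from the median of Id1, PLLA -US replicate 1 and PLLA/ZnO@Col -US replicate 2, gave r = 0.76 over 9 libraries. Id1 and Bmp4 had r = 0.78 (permutation p = 0.0124, adjusted 0.0331; rho = 0.57, permutation p = 0.0725, adjusted 0.216). Id1 and Grem1 had r = -0.80 (permutation p = 0.00819, adjusted 0.0328; rho = -0.39, permutation p = 0.238, adjusted 0.317). Without the same 2 libraries these were 0.02 and 0.03, so within the 11 both relations rest on them. The other 5 pairs, among them Id1 and Smad6 at r = 0.45, had adjusted permutation p of 0.051 or more. Over all 18 libraries, r was 0.74 for Id1 and Id3, 0.76 for Id1 and Bmp4 (adjusted permutation p = 0.00264 for each) and 0.64 for Id3 and Smad6 (0.0127). No other pair was under 0.05. On deviations from group means these were 0.63, 0.80 and 0.49, the last with an adjusted permutation p of 0.0968. By rank, Id1 and Bmp4 had rho = 0.44 over the 18 libraries and 0.37 on deviations (adjusted permutation p = 0.181 and 0.213). Id1 and Id3 had rho = 0.82 and 0.63 (adjusted 0.00048 and 0.0432). Id3 and Smad6 had rho = 0.49 and 0.53 (adjusted 0.172 and 0.0968). Without the 3 libraries, Id1 had r = 0.31 with Bmp4, 0.74 with Smad6 and -0.72 with Grem1. The adjusted permutation p was 0.281, 0.00517 and 0.00714, and for Grem1 rho was -0.55 (adjusted 0.0704). Id3 and Smad6 had r = 0.74 in that setting (adjusted 0.00517). It keeps the 2 libraries on which the Grem1 relation within the 11 rests. The library sets enter these values. Tests were two-sided.

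**Figure D3:**
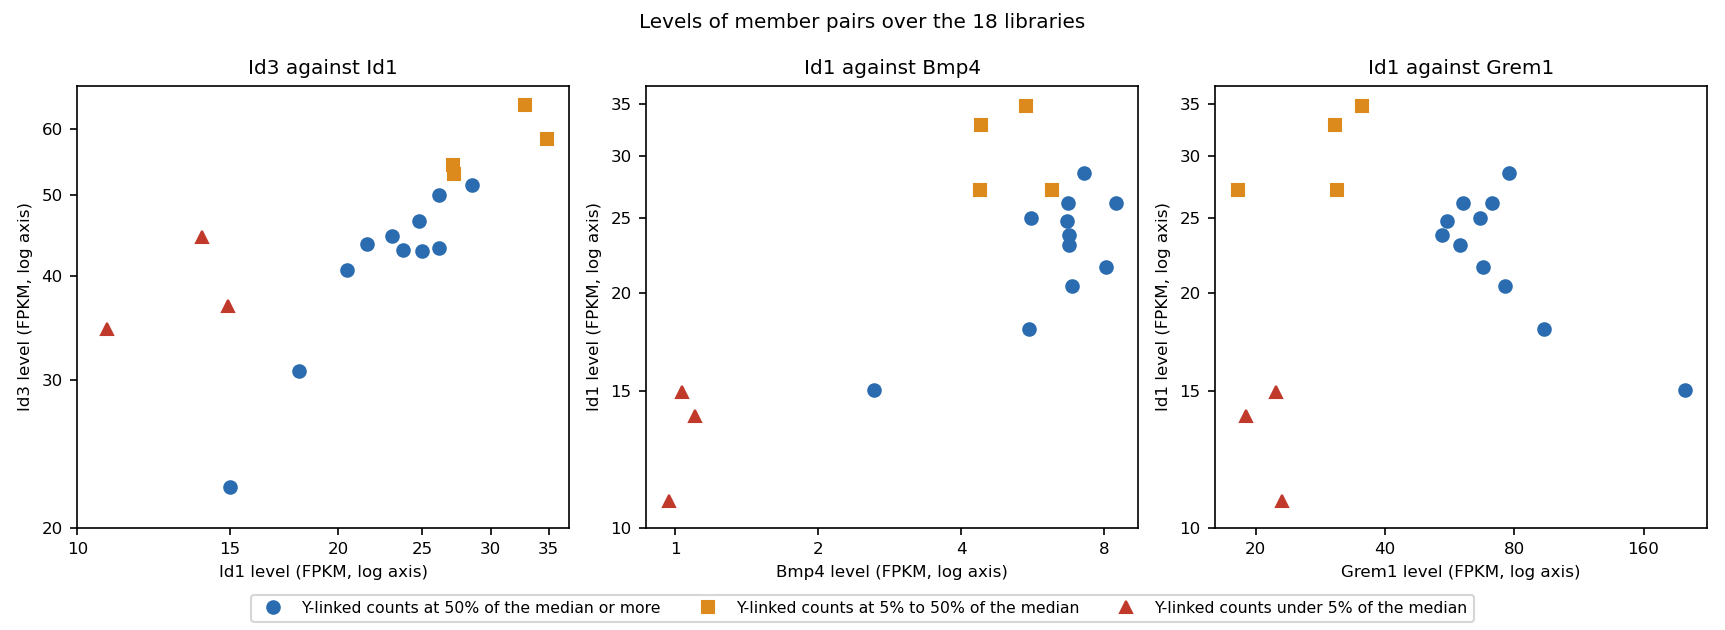
Levels of Id3 against Id1, Id1 against Bmp4 and Id1 against Grem1 in each of the 18 libraries (FPKM, log axes); colour and shape give Y-linked counts against the median. Blue points run along a line for Id1 and Id3 (r = 0.94 over 11 libraries), while in the other panels PLLA/ZnO@Col -US replicate 2 stands apart, at 2.63 FPKM of Bmp4 and 199 FPKM of Grem1.

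Likeness to Id1 and Bmp4 was measured by Pearson correlation of log2 CPM over all 18 libraries, which share the sets described above, and is given as a description. The 5 genes most like Id1 were Rasl11a (r = 0.95), Dlx2 (0.88), Tsnax (0.88), Adipor1 (0.87) and Fhl2 (0.87). Within the 11 libraries the same genes had r from 0.58 (Fhl2) to 0.91 (Rasl11a). The 5 most like Bmp4 were Ccl5 (r = 0.96), Actr3b (0.96), Bst2 (0.96), Clip4 (0.96) and Clec11a (0.95), with r from 0.77 (Actr3b) to 0.95 (Bst2) within the 11 libraries.

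Other BMP pathway genes came from a list of 51, of which 47 were in the table and 26 were tested. Of the 11 other ligands listed, 9 were in the table and none passed the filter on low values, and Gdf5 was the highest measured, at no more than 0.267 FPKM. Among receptors and co-receptors 4 of 9 passed, led by Acvr1, a type I receptor, at a median of 11.99 FPKM. All 7 Smads and Smad ubiquitin ligases passed, with Smurf1 at 25.2 and Smad4 at 15.4 FPKM. Of the inhibitors and modulators 9 of 15 passed, with Fstl1, a follistatin-related secreted protein, at 110 FPKM, and of the targets 6 of 9, with Id4 at 63.2 FPKM. Per length, Bmp4 was the only measured ligand above the filter, while Grem1, Fstl1, Chrdl1 (29.8 FPKM) and Twsg1 (27.1 FPKM), all secreted regulators of BMP access, were several times as abundant.

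**Figure D4:**
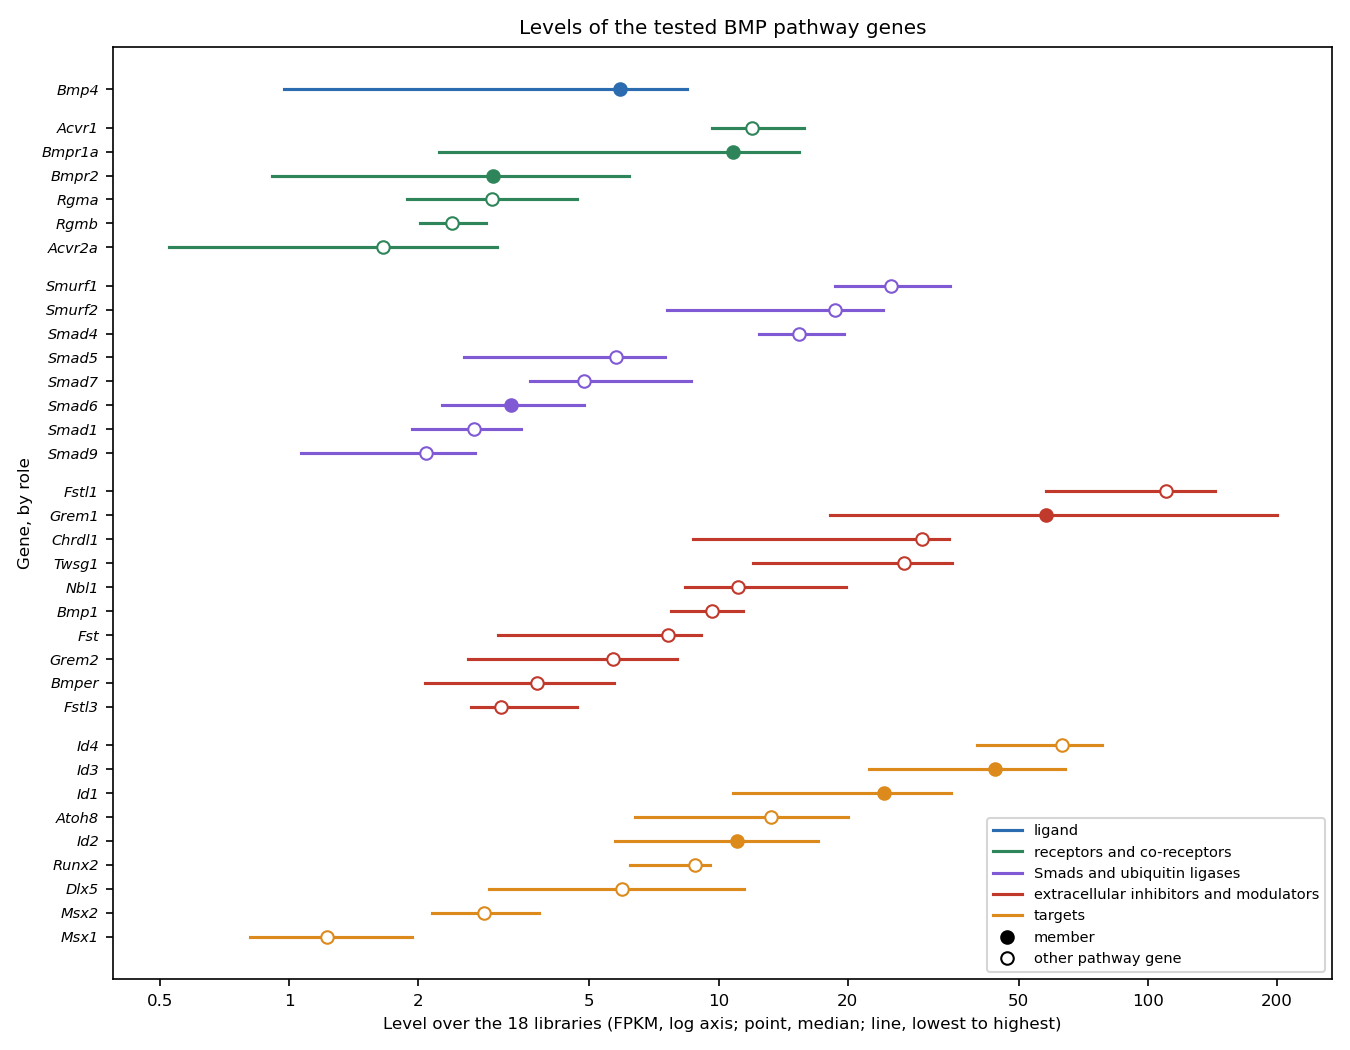
Level of each tested BMP pathway gene over the 18 libraries (FPKM, log axis), grouped by role; points are medians, lines run from the lowest to the highest library, and filled points are members. Bmp4 has a median of 5.90 FPKM and Grem1 one of 57.8 FPKM.

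The test called 0 of the 26 in all 7 comparisons by edgeR. DESeq2 called 1, Fstl1, for collagen without ultrasound (3.41% of all genes), and limma called none. At an unadjusted p under 0.05 there was 1 of 26 for ultrasound on PLLA/ZnO@Col, against 8.18% of all genes in either direction, and none in the 4 comparisons without collagen. For collagen there were 3 without ultrasound, against 12.9% of all genes, and 3 with it, against 9.43%. These shares were near those over all genes. In the fit without the 3 libraries edgeR called Atoh8 for ultrasound on PLLA/ZnO@Col (0.93% of all genes), Smad7 and Atoh8 for collagen without ultrasound (1.39%), Atoh8 and Dlx5 for the ultrasound average (8.75%) and Smad7 for any difference (0.209%). Without PLLA/ZnO@Col -US replicate 2 it called Fst, Fstl1 and Dlx5 for collagen without ultrasound (8.7%) and Fstl1 for any difference (1.77%). For collagen without ultrasound 14 of the 26 were higher and 12 lower, with a median log2 fold change of 0.02, against 0.04 over all genes. For collagen with ultrasound 18 were higher and 8 lower, with a median of 0.10, against 0.00 over all genes.

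Atoh8, a helix-loop-helix gene induced by BMP signalling, was lowest on collagen without ultrasound. It was at 13.5, 11.1 and 14.2 FPKM on PLLA/ZnO -US, 9.13, 6.38 and 8.62 on PLLA/ZnO@Col -US and 9.30, 20.03 and 17.6 on PLLA/ZnO@Col +US. Every stimulated collagen library lay above every unstimulated one, although replicate 1 did so narrowly. The log2 fold change was 0.95 (SE 0.23, unadjusted p = 0.000929, adjusted p = 0.525 by edgeR) for ultrasound and -0.65 (SE 0.23, adjusted p = 0.248) for collagen without it. For ultrasound the value was 1.60 (adjusted p = 0.0134 by edgeR) without the 3 libraries, which rests on 1 unstimulated collagen library at 6.38 FPKM, and 0.22 (adjusted p = 0.999) without the 4. It was 1.24 (adjusted p = 0.0238) without PLLA/ZnO@Col +US replicate 1. For collagen without ultrasound it was -1.05 without the 3. It was -0.64 without the 4, none of which is in that comparison.

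Fstl1 on collagen without ultrasound was at 65.4, 98.3 and 57.9 FPKM against 130, 125 and 116 on PLLA/ZnO -US, groups that did not overlap. The log2 fold change was -0.71 (SE 0.19, adjusted p = 0.123 by edgeR), and DESeq2 gave an adjusted p of 0.0235. Without PLLA/ZnO@Col -US replicate 2, edgeR gave -0.93 with an adjusted p of 0.0107. Without the 3 libraries it gave -0.35, and without the 4, which are not in this comparison, it gave -0.71. Over the alternative settings the adjusted p ran up to 0.812. Id4, the fourth Id gene, was at -0.42 (SE 0.18, adjusted p = 0.331 by edgeR) in the same comparison, -0.38 without the 3 libraries and -0.41 without the 4.

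For collagen with ultrasound, Smad7, the other inhibitory Smad, had a log2 fold change of 0.68 (SE 0.28, adjusted p = 0.473 by edgeR). Its levels there were 4.00, 8.61 and 8.61 FPKM, against 4.23, 5.05 and 4.25 on PLLA/ZnO +US, and its value was 0.93 without the 3 libraries and turned to -0.16 without the 4. Bmp1, a metalloproteinase that cleaves the inhibitor chordin and procollagen, was at 0.39 (SE 0.13, adjusted p = 0.415 by edgeR), with 11.4, 11.4 and 11.1 FPKM against 8.10, 8.90 and 9.43, groups that did not overlap, and 0.35 without the 3 libraries and 0.47 without the 4. Rgma, a BMP co-receptor, was at 0.52 (SE 0.23, adjusted p = 0.497 by edgeR), with 4.68, 3.55 and 3.84 FPKM against 2.80, 2.84 and 2.98. It was 0.36 without the 3 libraries and 0.78 without the 4.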

How the data were processed

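In the table that the authors deposited, each gene has a raw count and an FPKM value for every library, per the file headers. The tools named are cutadapt 1.9 and FastQC and the build is GRCm38, per the submitters' processing notes. How reads were aligned and counted, and whether by strand, is not given in the sources used here. Libraries were grouped by title.

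Counts of genes with at least 1 FPKM in at least 3 libraries were scaled by TMM and fitted together (6 group means, 12 residual degrees of freedom) in edgeR 4.0.16. Tests were two-sided, with Benjamini-Hochberg adjustment within each comparison. The common biological coefficient of variation was 0.28. SE is the log2 fold change divided by the root of F. On simulated counts for collagen with ultrasound (11936 genes), 2, 20, 43 and 46 of 50 genes changed 1.5-, 2-, 3- and 4-fold were recovered, with 5 false calls. The simulated libraries were drawn independently, without the library sets, so these rates may not hold for the real groups. No replicate pair agreed within sampling noise (lowest chi-square per degree of freedom 12.2).

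All 10 members are named. Values are given where the unadjusted p was under 0.05, otherwise for the smallest p, and for other pathway genes under 0.05, up to 3 per role. Levels of further genes and all values under alternative settings were chosen after they were seen. The members and lists were chosen with earlier results of these data known. Correlations used 100000 permutations. They had been planned over 18 libraries and were restricted to 11 after the data were seen. Of 10 pairs, 2 with Bmp2 or Nog were not run. Alternatives covered DESeq2 1.42.0, its size factors, limma 3.58.1, 2 other filters, a replicate block, fits of the compared libraries alone, the sets of libraries left out and each library left out.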

Additional observations from a re-analysis of the deposited data

How the results depend on the processing

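Of the 8 members, DESeq2 called 1 for collagen without ultrasound (3.41% of all genes) and 1 for any difference (4.24%). Without the 3 libraries of lowest Y-linked counts, 2 were called for ultrasound on PLLA/ZnO@Col (0.93% of all genes), 2 for collagen without ultrasound (1.39%) and 3 for the ultrasound average (8.75%), against 0 with all libraries. That fit leaves 1 unstimulated collagen library, and the 4 intermediate libraries in it all had ultrasound. Leaving out the 4 takes no library from the collagen comparison without ultrasound. Without the 4 intermediate libraries the numbers were 2 for collagen without ultrasound (0.695%) and 1 for any difference (0.0503%). Leaving out each library gave 0 to 2 called members for ultrasound on PLLA/ZnO@Col (2 without PLLA/ZnO@Col +US replicate 1, 0.318% of all genes) and 0 to 2 for collagen without ultrasound (2 without PLLA/ZnO@Col -US replicate 2, 8.7%), and 0 elsewhere.

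Of the 26 other pathway genes, DESeq2 called 1 for collagen without ultrasound (3.41% of all genes) and 2 for any difference (4.24%). Without the 3 libraries, 1 was called for ultrasound on PLLA/ZnO@Col (0.93% of all genes), 2 for collagen without ultrasound (1.39%), 2 for the average (8.75%) and 1 for any difference (0.209%). Leaving out each library gave 0 to 1 for ultrasound on PLLA/ZnO@Col (1 without PLLA/ZnO@Col +US replicate 1, 0.318% of all genes). It gave 0 to 3 for collagen without ultrasound and 0 to 1 for any difference, and 0 elsewhere. The 3 and the 1 came without PLLA/ZnO@Col -US replicate 2 (8.7% and 1.77% of all genes).

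Directions turned in 4 of 288 recomputed log2 fold changes. Without the 4 libraries, ultrasound on PLLA/ZnO@Col gave -0.67 for Bmp4 and -0.42 for Id1, and collagen with ultrasound -0.16 for Smad7. Leaving out each library gave -1.84 to 0.47 for Grem1 with ultrasound on PLLA/ZnO@Col. Correlations turned over all 18 libraries for Id1 with Id2 (-0.19) and with Grem1 (0.028). On deviations from group means they turned for Id1 with Id2 (-0.20) and Grem1 (0.061) and for Id2 with Smad6 (-0.022). The cause was not tested.

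With the replicate block, 0 members and 0 other pathway genes were called in each comparison. Same-numbered libraries deviated together (r over 0.1) in 21 of 45 pairs, and different-numbered ones in 32 of 90. The median r was 0.064 for the same number and -0.025 for different numbers. Of 18 libraries, 8 correlated best with their own number. These values do not settle whether the numbers pair the samples. Among the members, Nog was near the limit of detection, at 0 to 24 counts per library. With 3 libraries per group and library sets on the collagen groups, a p that misses the threshold does not show that levels were alike. Even in simulated counts without such sets, few of the genes changed less than 2-fold were recovered.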
